A study of Mus musculus with 8 samples.

Results

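Integrins are the cell surface receptors by which fibroblasts hold on to the matrix around them, and the transcripts of 10 of their subunits were examined in cultured mouse cardiac fibroblasts. The subunits were those of the fibronectin-binding and TGF-β-activating receptors, namely the alpha chains Itga4, Itga5, Itga8, Itga9 and Itgav and the beta chains Itgb1, Itgb3, Itgb5, Itgb7 and Itgb8. They were chosen by gene symbol, and all 10 were found among the 22274 genes of the deposited count table. The libraries were made from primary fibroblasts of the mouse heart, the cells that lay down collagen there. All 8 were treated with TGF-β, the cytokine that turns fibroblasts into contractile myofibroblasts, so no comparison with cells without TGF-β was possible. In 4 libraries, labelled GFP, the cells carried the empty control vector, and in 4, labelled OEIRF7, they were transduced to overexpress IRF7, a transcription factor of the interferon response. C57BL/6 J was the background of the mouse strains, and the age and sex of the mice behind these cultures were not given in the sources used here. The study's legend for this experiment gives fewer biological replicates than the 4 libraries per group, and neither it nor the labels say which libraries came from separate cultures. All p-values therefore measure only the spread between these libraries, which may be technical.

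An integrin is a heterodimer of an alpha and a beta chain, and neither chain reaches the cell surface alone. α5β1, made of Itga5 and Itgb1, is the main receptor for fibronectin and recognizes its RGD sequence, as do α8β1 and the αv integrins. α4β1 and α9β1 bind other stretches of fibronectin and its relatives, and α4 also pairs with β7 on leukocytes. TGF-β is secreted in a latent complex whose propeptide carries an RGD motif. αvβ8 and αvβ6 are the receptors best known for releasing it, and in contractile fibroblasts αv paired with β1, β3 or β5 can do so by pulling on the complex.

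The total counts were 24888589 to 27095611 per library labelled GFP and 24454801 to 28658826 per library labelled OEIRF7, and replicates differed by more than sampling noise (2.91 to 9.94 in chi-square over its degrees of freedom). Mouse Irf7 was lower under the label OEIRF7. It had 2861, 3680, 2272 and 3291 counts in the libraries labelled GFP and 385, 421, 380 and 404 in those labelled OEIRF7, a log2 fold change of -2.96 (SE 0.121, adjusted p = 7.7e-11 from edgeR). The study's methods name an adenovirus for these cells, and the adenoviral vector in its reagent list is named for human IRF7, whose reads these mouse counts would not measure. The series' own design text speaks of adeno-associated virus. The listed vector of that kind is named for the mouse gene, which the counts would then measure, and a fall would go against the label. The study describes injecting that vector into mice, while its legend for these cells names the adenovirus. Which vector was used is not settled by the sources used here, and every direction below is between libraries as labelled. The 10 cardiac fibroblast markers summed to 8166 to 8680 CPM (counts scaled to a common library size) in the libraries labelled GFP and 7088 to 7629 CPM in those labelled OEIRF7, with Col1a1 the most abundant. At an adjusted p under 0.05 from edgeR, 7 of these 10 were lower and 1 higher, against 29.9% and 29.0% of all genes tested. Cardiomyocyte markers summed to between 8.52 and 14.2 CPM over all libraries, most of it Tnnt2.

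Of the 10 integrin subunits, 9 passed the filter on low counts and 8 of these differed between the groups with an adjusted p under 0.05. Itga5, Itga9, Itgb1 and Itgb3 were higher in the libraries labelled OEIRF7. Itga4, Itga8, Itgb5 and Itgb8 were lower, Itgav was not past the threshold, and Itgb7 had too few counts to be tested. Since 7969 of the 13533 genes tested were past the same threshold (58.9%), with 3924 higher (29.0%) and 4045 lower (29.9%), a call alone sets a subunit little apart from other genes. At the limits in the study's methods, which ask for a fold of more than 1.5 or less than 0.66 at an unadjusted p below 0.05, 2576 of all genes were called (19.0%), 1282 higher (9.47%) and 1294 lower (9.56%). By that rule 2 subunits were higher, Itga5 and Itgb3, and 2 were lower, Itga8 and Itgb8. The libraries of the groups did not overlap in 8 of the 9 tested subunits, against 7282 of all genes tested (53.8%). The median log2 fold change of the 9 was 0.01, against 0.00 over all genes, and the median size was 0.50 against 0.25. In bulk RNA such as this, fewer cells of a type and less RNA per cell cannot be told apart.

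**Figure D1:**
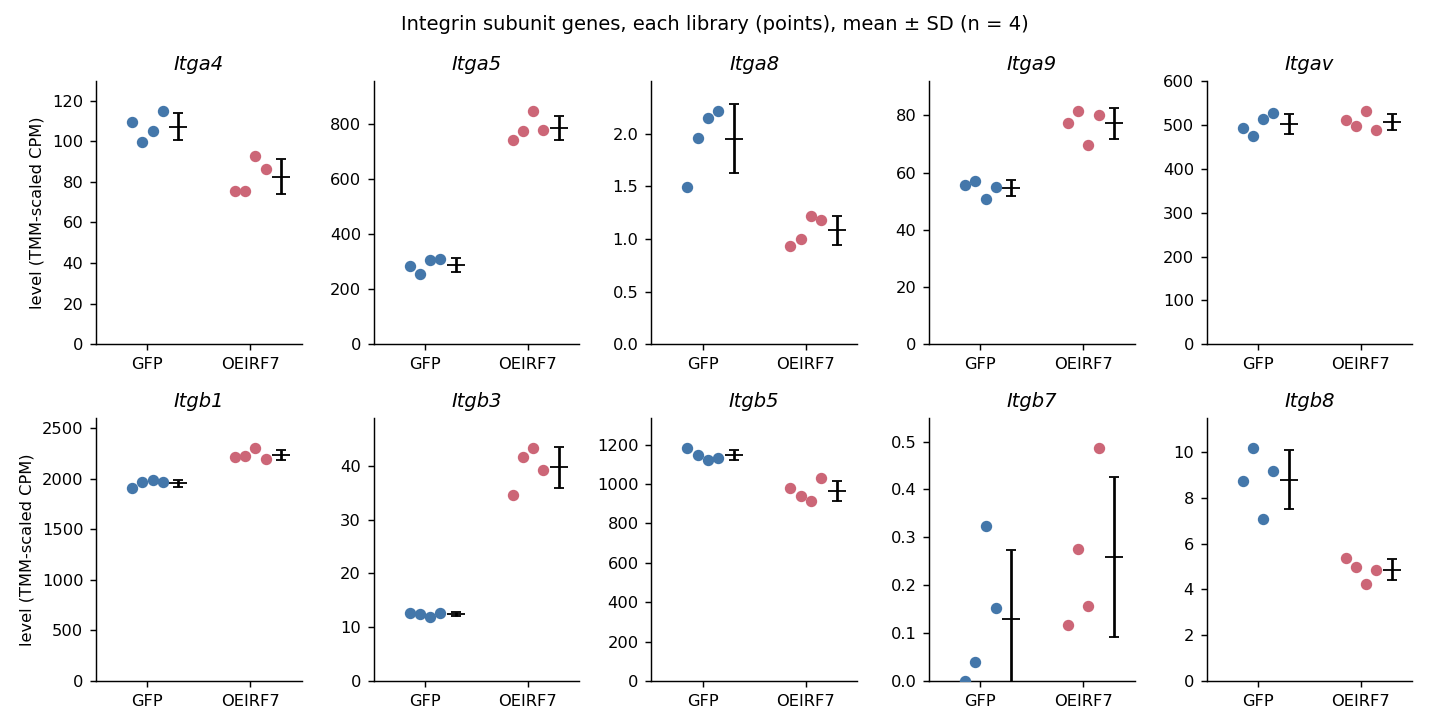
Level of each integrin subunit in CPM (linear axis from 0, a scale of its own per gene) in the 4 libraries labelled GFP and the 4 labelled OEIRF7. Points are libraries and bars are the mean ± SD (n = 4), cut at 0 for Itgb7. The points of Itga5 and Itgb3 lie far above those labelled GFP, and the groups of Itgav and Itgb7 overlap.

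Itga5 (ENSMUSG00000000555, chr15:103344286-103366763, minus strand, GRCm38) encodes the alpha chain of the main fibronectin receptor. It had 284, 254, 306 and 308 CPM in the libraries labelled GFP and 741, 774, 846 and 779 CPM in those labelled OEIRF7. The lowest OEIRF7 library was thus above the highest GFP library by far more than the spread within either group. The means were 288 ± 25.2 and 785 ± 44.1 CPM (SD, n = 4 per group), a 2.72-fold rise. On the log2 scale this was 1.45 (SE 0.0565, 95% interval 1.32 to 1.57, adjusted p = 5e-11 from edgeR). An exact two-sided permutation test of the 8 libraries gave p = 0.029, the smallest that 4 against 4 allow, here and for each of the other 7 subunits whose groups did not overlap. Of all genes tested, 4.18% had a change of at least this size.

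Itgav (ENSMUSG00000027087, chr2:83724397-83806916, plus strand), the alpha chain shared by the αv receptors, behaved otherwise. Its level was 493, 475, 515 and 527 CPM in the libraries labelled GFP and 511, 498, 532 and 490.3 CPM in those labelled OEIRF7. The groups overlapped throughout. The means were 503 ± 22.9 and 508 ± 18.2 CPM (SD, n = 4 per group), and the log2 difference of 0.01 had a 95% interval of -0.07 to 0.10 (adjusted p = 0.76 from edgeR, p = 0.69 in the exact two-sided permutation test). Without GFP replicate 2 or OEIRF7 replicate 3 it was -0.01. Of its exonic bases, 634 (5.90%) overlap Gm13684, which was not analysed here.

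Itga4 and Itga9 encode the alpha chains of the receptors that bind fibronectin outside the RGD motif and also bind VCAM-1 and osteopontin, and they moved in opposite directions. Itga4 (ENSMUSG00000027009, chr2:79255426-79333123, plus strand) had 109.5, 99.5, 105 and 115 CPM in the libraries labelled GFP and 75.6, 75.5, 92.8 and 86.2 CPM in those labelled OEIRF7. All 4 OEIRF7 libraries were lower, and Itga4 fell by 0.38 on the log2 scale (SE 0.0638, 95% interval -0.51 to -0.24, adjusted p = 0.00013 from edgeR). It shares 1124 exonic bases (8.04%) with Cerkl on the other strand. Cerkl had 1.24 ± 0.242 and 0.886 ± 0.262 CPM (SD, n = 4 per group), and the sources used here do not say whether counting used strand. Itga9 (ENSMUSG00000039115, chr9:118606690-118901003, plus strand) had 55.7, 57.0, 50.6 and 54.8 CPM in the libraries labelled GFP and 77.4, 81.4, 69.6 and 80.2 CPM in those labelled OEIRF7. Each OEIRF7 library was above each GFP library, and Itga9 rose by 0.50 on the log2 scale (SE 0.0529, 95% interval 0.39 to 0.61, adjusted p = 1.3e-06 from edgeR).

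Itga8, whose product pairs with β1 and binds fibronectin, tenascin-C and nephronectin, was the least abundant of the alpha chains. Itga8 (ENSMUSG00000026768, chr2:12106632-12301922, minus strand) had 40, 49, 53 and 58 counts in the libraries labelled GFP and 24, 29, 31 and 29 in those labelled OEIRF7. In CPM the means were 1.95 ± 0.325 and 1.08 ± 0.138 (SD, n = 4 per group), with no overlap. It fell by 0.85 on the log2 scale (SE 0.207, 95% interval -1.30 to -0.41, adjusted p = 0.0025 from edgeR), the widest interval among the subunits. With log2(FPKM + 1) in limma, a scale that understates changes of low genes, it fell by 0.16 (adjusted p = 0.030). Itga8 shares 372 exonic bases (5.05%) with E030013I19Rik on the other strand, a gene absent from the count table. Mural cells also carry α8, and of 6 tested mural markers 3 were lower and 2 higher, against 29.9% and 29.0% of all genes tested. The mural markers summed to 125 to 137 CPM in the libraries labelled GFP and 107 to 129 CPM in those labelled OEIRF7. The part of mural cells in the fall of Itga8 was not tested.

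Itgb1 is the beta chain common to α4, α5, α8 and α9, and it was the most abundant subunit. Itgb1 (ENSMUSG00000025809, chr8:128685654-128733200, plus strand) had 1904, 1964, 1982 and 1969 CPM in the libraries labelled GFP and 2215, 2225, 2302 and 2195 CPM in those labelled OEIRF7. The groups were apart, yet the rise was 1.14-fold, or 0.19 on the log2 scale (SE 0.0253, 95% interval 0.14 to 0.25, adjusted p = 1.2e-05 from edgeR). A change of this size or larger was found in 59.66% of all genes tested.

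Itgb3, the beta chain of the vitronectin receptor αvβ3, had the largest change of the 9 tested subunits. Itgb3 (ENSMUSG00000020689, chr11:104608000-104670476, plus strand) had 12.5, 12.5, 12.0 and 12.7 CPM in the libraries labelled GFP. In those labelled OEIRF7 it had 34.6, 41.7, 43.3 and 39.2 CPM. The GFP libraries lay within 1 CPM of each other, and every OEIRF7 library was far above them. The means were 12.4 ± 0.326 and 39.7 ± 3.79 CPM (SD, n = 4 per group), a 3.20-fold rise, or 1.68 on the log2 scale (SE 0.071, 95% interval 1.52 to 1.83, adjusted p = 1e-10 from edgeR). Only 2.81% of all genes tested changed by as much. Macrophages and endothelial cells also carry β3. Of 8 tested macrophage and leukocyte markers 5 were higher and 0 lower in edgeR, and they summed to 284 to 337 CPM in the libraries labelled GFP and 366 to 403 CPM in those labelled OEIRF7, with Lyz2 the most abundant and Cd3e without a count in any library (up to 3 counts per library allowed). This sum includes the integrin subunits Itgam and Itgb2. Of 8 endothelial markers 4 were higher and 1 lower, summing to 218 to 228 and 221 to 246 CPM. Over all genes tested 29.0% were higher and 29.9% lower. The part of either cell type in the rise of Itgb3 was not tested.

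Itgb5, the beta chain of αvβ5, moved against Itgb3. Itgb5 (ENSMUSG00000022817, chr16:33829665-33949338, plus strand) had 1183, 1146, 1123 and 1133 CPM in the libraries labelled GFP and 978, 938, 913 and 1031 CPM in those labelled OEIRF7. Every OEIRF7 library was lower, and Itgb5 fell by 0.25 on the log2 scale (SE 0.0361, 95% interval -0.33 to -0.17, adjusted p = 3.3e-05 from edgeR). A change of at least this size was found in 50.65% of all genes tested.

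Itgb8 and Itgb7 were the scarce beta chains. Itgb8 (ENSMUSG00000025321, chr12:119158022-119238802, minus strand), which with αv presents latent TGF-β for release, had 234, 254, 175 and 240 counts in the libraries labelled GFP and 138, 145, 108 and 119 in those labelled OEIRF7. All OEIRF7 libraries were below all GFP libraries, and in CPM the means were 8.79 ± 1.28 and 4.85 ± 0.463 CPM (SD, n = 4 per group). It fell by 0.86 on the log2 scale (SE 0.119, 95% interval -1.11 to -0.60, adjusted p = 2.1e-05 from edgeR). The limma fit on log2(FPKM + 1) gave a fall by 0.36. Itgb7 (ENSMUSG00000001281, chr15:102215995-102231944, minus strand), the partner of α4 on leukocytes, had 0, 1, 8 and 4 counts in the libraries labelled GFP and 3, 8, 4 and 12 in those labelled OEIRF7. The count of 0 allows up to 3 counts, or 0.112 CPM, and no difference was detectable at this depth.

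**Figure D2:**
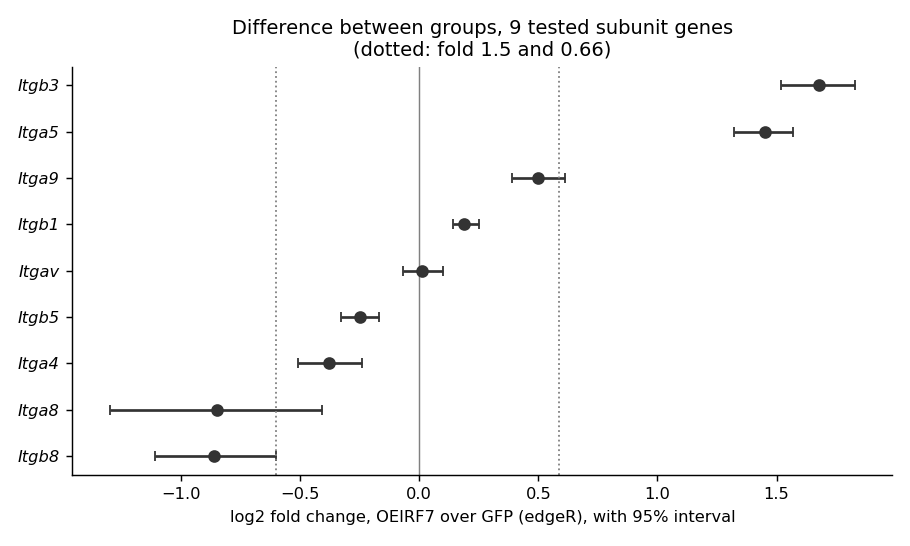
Log2 fold change (OEIRF7 minus GFP) of the 9 tested integrin subunits, with the 95% interval from edgeR as bars and dotted lines at folds of 1.5 and 0.66. Itgb3 (1.68) and Itga5 (1.45) lie beyond the upper line, Itga8 (-0.85) and Itgb8 (-0.86) beyond the lower, and the interval of Itgav spans 0.

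The 250 bases before the RefSeq transcript start of Itga5 and Itgb8, which moved in opposite directions, are shown for GRCm38.p6, for a view of the sequence upstream of an alpha and a beta chain. RefSeq and GENCODE, which gave the gene positions above, do not place every start alike. The RefSeq start of Itga5 lies 28 bases before the GENCODE span, and that of Itgb8 lies 526 bases inside it, so the Itgb8 window is within the gene as positioned above. Capitals mark the GC box, letters GGGCGG on either strand.
Itga5 (chr15:103366792-103367041, minus strand): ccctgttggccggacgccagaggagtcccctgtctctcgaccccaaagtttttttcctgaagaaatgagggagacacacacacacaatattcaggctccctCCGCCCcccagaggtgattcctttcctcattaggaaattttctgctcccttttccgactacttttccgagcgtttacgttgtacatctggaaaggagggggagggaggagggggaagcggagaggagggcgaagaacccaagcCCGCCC
Itgb8 (chr12:119238277-119238526, minus strand): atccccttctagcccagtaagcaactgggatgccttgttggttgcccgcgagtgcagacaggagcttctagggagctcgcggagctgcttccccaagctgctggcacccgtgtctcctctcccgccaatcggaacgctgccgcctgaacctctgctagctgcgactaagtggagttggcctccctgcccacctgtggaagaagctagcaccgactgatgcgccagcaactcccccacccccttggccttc
Windows before a RefSeq start were matched for 9 of the 10 subunits, Itgb3 being the exception. The RefSeq start was within 50 bases of the GENCODE start for 7 of the 9. The exceptions were Itgb8 and Itga9, whose RefSeq start lies 105002 bases inside the GENCODE span. Both strands were searched for 4 motifs. The GC box was in 32.7% of the 32851 mouse promoters of this length, and among the subunits it was matched at 2 places for Itga5, at 3 for Itgb5 and at 1 each for Itga4 and Itgb1. The tandem interferon regulatory factor element, GAAANN directly followed by GAAA, was in 2.98% of all promoters, the AP-1 site TGANTCA in 6.75% and the SMAD element GTCTAGAC in 0.167%. None of these 3 was matched in the 9 windows, which says only that these letters are not there. The IRF motif that the study reports for the Hk1 promoter has other letters and was not searched for. For Itga9 and Itgb8 the region before the GENCODE start was not searched.

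Levels of different genes can be compared only per length, and FPKM, which the study gave, was used for this. In the libraries labelled GFP the order was Itgb1 (508 ± 9.69 FPKM, SD, n = 4), Itgb5 (368 ± 6.96), Itgav (83.5 ± 3.64), Itga5 (65.1 ± 5.65), Itga4 (10.9 ± 0.641), Itga9 (9.97 ± 0.762), Itgb3 (2.12 ± 0.0520), Itgb8 (1.04 ± 0.150), Itga8 (0.335 ± 0.0592) and Itgb7 (0.0475 ± 0.0550). Itga4 and Itga9 were neighbours whose libraries overlapped. In the libraries labelled OEIRF7 Itga5 (181 ± 9.20 FPKM) stood above Itgav (86.4 ± 1.41), and Itga9 (15.1 ± 0.831) above Itga4 (8.53 ± 0.831). Itgb3 reached 6.93 ± 0.635 FPKM, and Itga8 (0.195 ± 0.0300) overlapped Itgb7 (0.0950 ± 0.0619).

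Within the summed FPKM of the 5 alpha chains, 170 ± 9.01 in the libraries labelled GFP and 291 ± 10.7 in those labelled OEIRF7 (SD, n = 4), the share of Itga5 was 38.3% ± 1.39 and 62.1% ± 0.871. Itgav held 49.2% ± 0.549 and 29.7% ± 0.617, while its own level in CPM did not pass the test. The ratio of Itga5 to Itgav in FPKM was 0.768, 0.732, 0.817 and 0.798 in the libraries labelled GFP and 2.02, 2.07, 2.19 and 2.09 in those labelled OEIRF7. With CPM per kb of annotated exon in place of FPKM, Itga5 stood above Itgav in both groups, so which is higher in the GFP libraries depends on the length used. Among the beta chains, which summed to 879 ± 8.56 and 912 ± 7.44 FPKM, Itgb1 held 57.8% ± 0.810 and 64.9% ± 1.55. Itgb5 held 41.8% ± 0.805 and 34.3% ± 1.60. Itgb3, in spite of its 3.20-fold rise, took 0.242% ± 0.00689 and 0.760% ± 0.0748. These shares are descriptions with no test, and transcript shares do not give the share of assembled heterodimers.

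**Figure D3:**
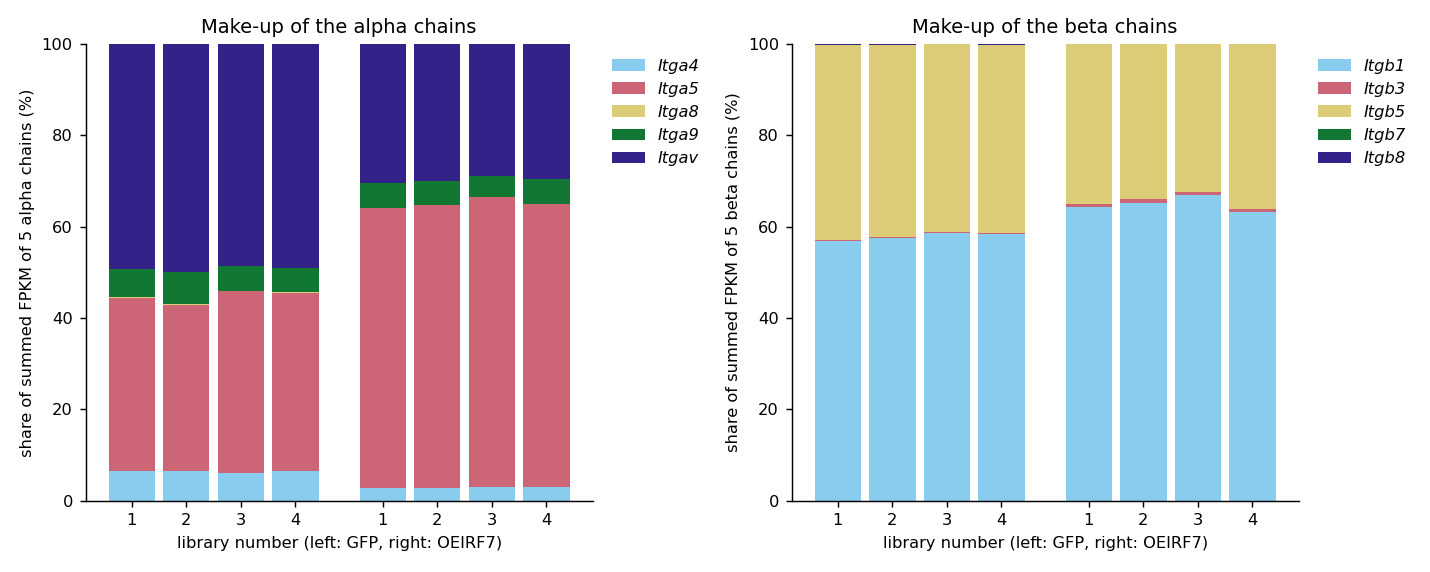
Share (%, linear axis) of each integrin subunit in the summed FPKM of the alpha chains and of the beta chains, stacked for each of the 8 libraries. In all 4 libraries labelled OEIRF7 Itga5 takes the largest alpha share (mean 62.1%), and Itgb3 stays under 1% of the beta chains.

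Among the 16 other integrin subunits, 14 were tested, with 6 higher, 4 lower and 4 not past the threshold and a median log2 fold change of 0.11. The shares over all genes tested were 29.0% higher and 29.9% lower. Itga2, a collagen receptor chain, had 7.88 ± 1.17 and 53.0 ± 7.63 CPM (SD, n = 4 per group), a rise of 2.75 on the log2 scale, larger than that of any of the 9 fibronectin and TGF-β integrins tested. Itga1 and Itga11, also collagen-binding chains, went the other way, Itga1 falling from 54.3 ± 3.99 to 22.4 ± 3.23 CPM and Itga11 from 57.0 ± 3.97 to 29.6 ± 4.23 CPM (edgeR, adjusted p = 9.5e-09 and 2.2e-07). The laminin receptor chains also split. Itga3 fell by 1.07 and Itga7 rose by 0.79 on the log2 scale. Itgam, a chain of myeloid cells, rose by 1.07. Itgb6, the other chain known to release TGF-β with αv and chosen here after its values were seen, had 0.423 ± 0.187 and 0.606 ± 0.206 CPM with overlapping groups (adjusted p = 0.27 from edgeR).

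The ligands of these receptors split in direction. Of 21 genes 18 were tested, with 7 higher and 8 lower and a median log2 fold change of 0.16. Over all genes tested 29.0% were higher and 29.9% lower. Vcam1, a ligand of α4β1 and α9β1, was 242 ± 16.4 and 563 ± 60.6 CPM (SD, n = 4 per group), a rise of 1.22 on the log2 scale (SE 0.0661, adjusted p = 1.1e-09 from edgeR). Tenascin-C (Tnc) and osteopontin (Spp1), bound by α9 and by αv integrins, rose by 0.96 and 0.88 (SE 0.0642 and 0.0599). Fibronectin itself, Fn1, had 13268 ± 412 and 11908 ± 532 CPM and fell by 0.16 on the log2 scale (adjusted p = 0.00057 from edgeR). The receptor chain Itga5 and its ligand Fn1 thus changed in opposite directions at transcript level. The change of Fn1 was smaller than the median size over all genes tested (0.25).

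Under the label OEIRF7, 10 of the 13 genes of latent TGF-β and its release were higher and 2 lower, with a median log2 fold change of 0.26. Over all genes tested 29.0% were higher and 29.9% lower. At the fold limits of the study's methods, 2 of the 13 were higher and 2 lower, against 9.47% and 9.56% of all genes tested. The 3 ligand genes were not alike. Tgfb1, whose product carries the RGD motif that αv integrins hold, had 67.3, 59.2, 64.6 and 64.6 CPM in the libraries labelled GFP and 162, 163, 156 and 162 CPM in those labelled OEIRF7, a rise of 1.33 on the log2 scale (SE 0.0408, adjusted p = 6.6e-12 from edgeR). Tgfb2, whose propeptide lacks that motif, fell by 1.55 (91.5 ± 5.33 to 31.2 ± 1.77 CPM). Tgfb3, which carries it, fell by 0.77 (153 ± 13.1 to 89.6 ± 8.58 CPM). Ltbp1, the matrix anchor of the latent complex, rose by 0.52 and Plau, an activator of plasminogen, by 0.96.

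The talins, kindlins, vinculin, tensins and other adaptors that couple integrins to actin were a list of 27 genes, all tested. Of these, 15 were lower, 5 higher and 7 not past the threshold, with a median log2 fold change of -0.16. Over all genes tested 29.9% were lower and 29.0% higher. Lims2, Vcl and Tln2 fell by 1.29, 0.91 and 0.74 on the log2 scale. The number of adaptors higher was 3 when GFP replicate 1, 3 or 4 or OEIRF7 replicate 3 was left out. Of 16 TGF-β response and myofibroblast genes, 9 were lower and 3 higher, with a median of -0.13. Acta2, the smooth muscle actin of myofibroblasts, fell by 1.83, from 2061 ± 74.3 to 581 ± 46.1 CPM (adjusted p = 1.2e-12 from edgeR), and Tagln fell by 0.98. Itga11, counted above, is also on this list.

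**Figure D4:**
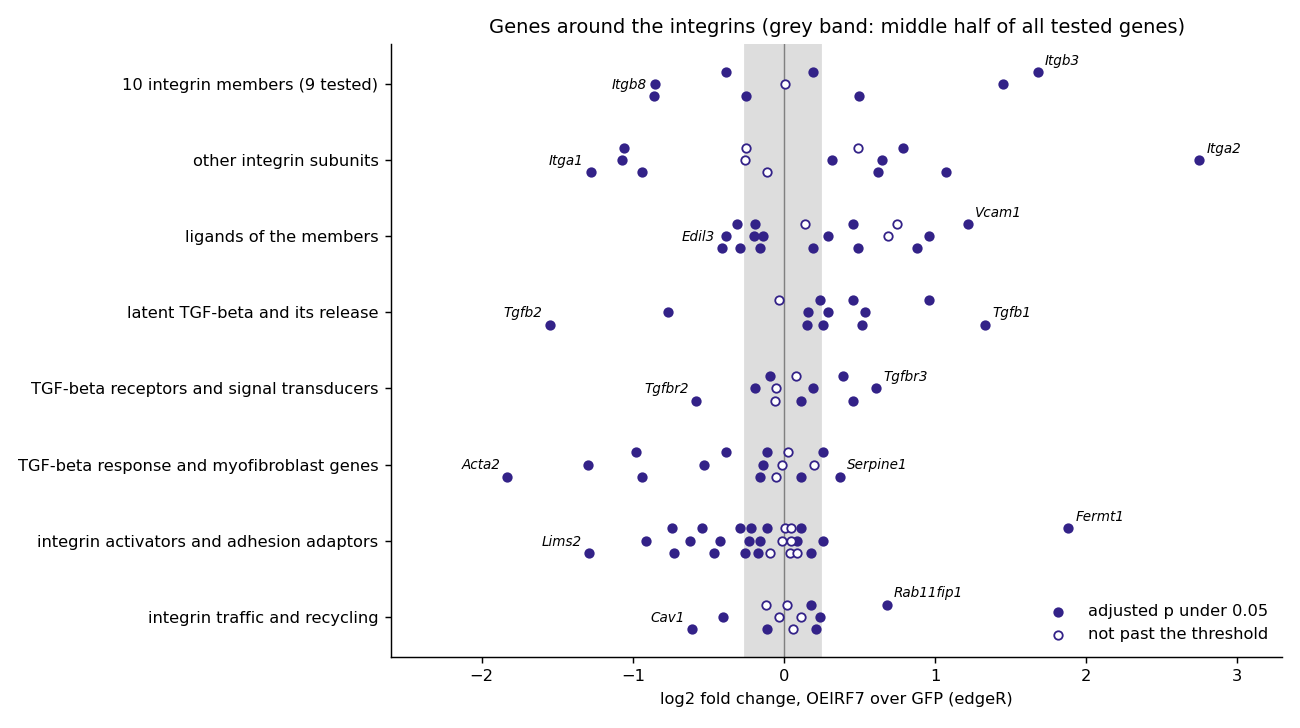
Log2 fold change (OEIRF7 minus GFP) of every tested gene of the integrin subunits and of the gene lists around them, 1 point per gene and filled where the adjusted p from edgeR is under 0.05. The grey band marks the range of the middle 50% of all tested genes, and the points of the adaptors and of the myofibroblast genes lie mostly below 0.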

How the data were processed

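RNA was sequenced from 8 libraries of TGF-β-treated primary mouse cardiac fibroblasts. The authors mapped reads to GRCm38 with HISAT2 and counted them per gene with HTSeq-count, and they deposited raw counts. FPKM values from Cufflinks were also deposited by the authors. The authors further deposited group means of FPKM, the log2 ratio of these means, a p-value and an FDR from their own comparison, and these 5 columns were not used. Tool versions and the strand setting of the counting are not given in the sources used here, and the labels and the study's methods differ on virus type and kits.

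Groups were taken from the labels. In R 4.3.3, edgeR 4.0.16 fitted all genes (filterByExpr, TMM, glmQLFTest, Benjamini-Hochberg), leaving 13533 genes. CPM were TMM-scaled. The exact permutation test used log2 CPM. Altered letters in 121 symbols were restored by Ensembl identifier from GENCODE M21, which gave the positions. Intervals use 95% and cover the spread between libraries. The fits were tried on simulated counts before use. These held far fewer changed genes than were called here, so they do not test error control in these data. Lists around the integrins, cell type markers and the members were chosen with earlier results of these data known. Genes named from a list were those with an adjusted p under 0.05, a log2 fold change past 0.58 in size, a mean above 5 CPM and no overlap, at most 3 in each direction, with Fn1, Ltbp1 and the TGF-β ligands always named. Alternatives were DESeq2 1.42.0, library size only, upper-quartile factors, genes with at least 1 count over all libraries or at least 10 in each, a replicate block, leaving out each library, limma 3.58.1 on log2(FPKM + 1) and log2(FPKM + 0.1) for means above 0.1 FPKM, the fold rule, and CPM per kb for levels.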

Additional observations from a re-analysis of the deposited data

How the results depend on the processing

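For the 9 tested subunits, 142 of 144 values under the alternatives kept their direction and side of the threshold, and 4 subunits were higher and 4 lower in every alternative fit. Itgav was the exception. Leaving out each library moved it from -0.01 to 0.04, at -0.01 without GFP replicate 2 and -0.01 without OEIRF7 replicate 3. By the fold rule 2 subunits were higher and 2 lower, and 1282 genes were higher and 1294 lower, since that rule asks for a larger change. The TGF-β receptors and signal transducers lower numbered 3, against 1 with limma on log2(FPKM + 1) and 1 on log2(FPKM + 0.1). They numbered 2 with DESeq2, library size only, both other count filters and the replicate block, and 2 to 3 leaving out each library. Smad2, among the 3, had an adjusted p of 0.049 in the main edgeR fit. Leaving out each library, the adaptors higher numbered from 3 to 5. By CPM per kb the share of Itga5 was 48.5% in the libraries labelled GFP and 71.5% in those labelled OEIRF7, that of Itgav 38.9% and 21.3%, and in the libraries labelled GFP that of Itgb1 59.5%, of Itgb3 0.262% and of Itgb5 40.1%, because the length differs. With the replicate number as a block, 4 subunits were again higher and 4 lower, with 4057 genes higher and 4154 lower in all. Deviations of libraries with the same number correlated by 0.0792, 0.0953, 0.138 and 0.104, each library best with its own number. The labels name no batch, and the samples were not treated as pairs. The errors, intervals and p-values from the main fit therefore leave any such pairing out. Depth limits Itgb7 and, less so, Itga8.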

Other observations

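The receptors and signal transducers of TGF-β, which act after its release by integrins, were also mixed. Under the label OEIRF7, 5 of 11 were higher and 3 lower, with a median log2 fold change of 0.08. Over all genes tested 29.0% were higher and 29.9% lower. Tgfbr3, the co-receptor betaglycan, had 18.2 ± 1.12 CPM under the label GFP and 27.8 ± 1.97 CPM under the label OEIRF7 (SD, n = 4), a log2 rise of 0.61 (adjusted p = 1.7e-06 from edgeR). The more abundant Tgfbr2, at the size limit for naming and added after its values were seen, fell by 0.58 on the log2 scale. It had 247 ± 7.91 CPM under the label GFP and 165 ± 12.2 CPM under the label OEIRF7 (adjusted p = 9.6e-08 from edgeR). Of 12 tested genes of integrin traffic, 4 were higher, 3 lower and 5 not past the threshold. Rab11fip1, an effector of integrin recycling, rose by 0.68, and Cav1, the coat protein of caveolae, fell by 0.61.

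The genes whose log2 CPM followed Itgb3 most closely over the 8 libraries were Gprc5a, Rexo4 and Inava, with Pearson correlations of 0.9993, 0.9977 and 0.9973. As the groups lie apart, 1414 of 13532 genes had a correlation over 0.95, and the libraries share the group difference. Epicardial and epithelial markers summed to 72.8 to 88.9 CPM in the libraries labelled GFP and 59.2 to 66.6 CPM in those labelled OEIRF7, with Upk3b the most abundant. Of 6 tested 3 were higher and 1 lower, against 29.0% and 29.9% of all genes tested.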
